A study of Mus musculus with 6 samples.

Results

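Septins are GTP-binding proteins that assemble into hetero-oligomers and filaments beneath membranes and along actin and microtubules, where they act as scaffolds and as barriers to diffusion. Their subunits fall into homology groups, named after SEPT2, SEPT3, SEPT6 and SEPT7, and an oligomer is built by joining subunits of different groups. In neurons septins are known from the base of dendritic spines, from branch points of dendrites and axons and from the presynaptic terminal, and in oligodendrocytes they form filaments in myelin. The 9 septin genes described here, Sept2, Sept3, Sept4, Sept5, Sept6, Sept7, Sept8, Sept9 and Sept11 (written Septin2 and so on in newer annotations), were taken by symbol from a table of 55471 genes, and all 9 were among the 17981 genes that passed the filter on low counts. The family was selected on the measured difference between the genotypes in these same libraries, led by Sept9, and Sept9 is on the study's own list of genes lower in CBP-ifKO, to which these samples contributed. Their differences between genotypes are therefore given as a description and without p-values. The intervals, threshold calls and alternative fits below rest on these same libraries and do not allow for that selection.

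RNA was sequenced from the hippocampus of C57BL/6 mice aged 3 to 6 months, in 3 Control and 3 CBP-ifKO samples, and per the study's methods each sample was a pool of 3 females. CBP-ifKO mice carry floxed Crebbp alleles and the tamoxifen-inducible recombinase creERT2 under the Camk2a promoter, which is active in excitatory neurons of the forebrain. The recombined allele encodes a truncated CBP without acetyltransferase activity, and glia, vessels and most interneurons lie outside the reach of the driver. Both groups received tamoxifen in 5 intragastrical administrations (20 mg/mL in corn oil). The treatment protocol describes the controls as littermates without creERT2, whereas the sample descriptions of the Control group name Camk2a_creERT2. Esr1, part of which is contained in creERT2, was at 5.65 to 6.29 CPM in Control and 63.6 to 69.4 CPM in CBP-ifKO. The study's methods also name littermates without the driver as controls, and the paper ascribes raised Esr1 to mice that carry it. By that account the groups differ in creERT2 as well as in Crebbp.

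Libraries held between 10199008 and 14950257 counts. Levels are given as CPM, the count of a gene relative to the size of its library after TMM scaling. Crebbp, the targeted gene, ranged from 156.4 to 208.6 CPM over the Control pools and from 87.1 to 108.6 over the CBP-ifKO pools, and fell by 0.96 on the log2 scale (edgeR adjusted p 3.63e-05). In a bulk sample, fewer cells of a type and less RNA per cell cannot be told apart, which holds for every level below. Pools of 1 group differed from each other by more than sampling noise (lowest chi-square per degree of freedom 2.48), and none was a copy of another.

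Of the 9 septins, 6 were past the threshold of the fit across all genes (edgeR quasi-likelihood test, adjusted p under 0.05), and all 6 were lower in CBP-ifKO, namely Sept9, Sept5, Sept11, Sept3, Sept6 and Sept8. Among all genes tested, 6.39% were past the threshold, 4.99% as lower and 1.4% as higher. That split depended on the scaling, with 897 genes lower and 252 higher here, 667 and 514 when libraries were scaled by their totals, and 727 and 371 once GC and length trends were taken out. The median log2 fold change of the 9 septins was -0.28, against -0.0033 over all genes tested, and -0.24 for the 8 septins other than Sept9. In the same 6 genes the groups did not overlap, with CBP-ifKO the lower one, which was so for 13.9% of all genes tested (25.6% in either direction). Because the comparison was known when the genes were picked, nothing is read from the distance between these shares. The count rested on single libraries: 2 septins, Sept9 and Sept11, were past the threshold without Control replicate 3, and 3, namely Sept9, Sept3 and Sept11, when Control replicate 2 or either of the last 2 CBP-ifKO replicates (2 and 3) was left out.

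**Figure D1:**
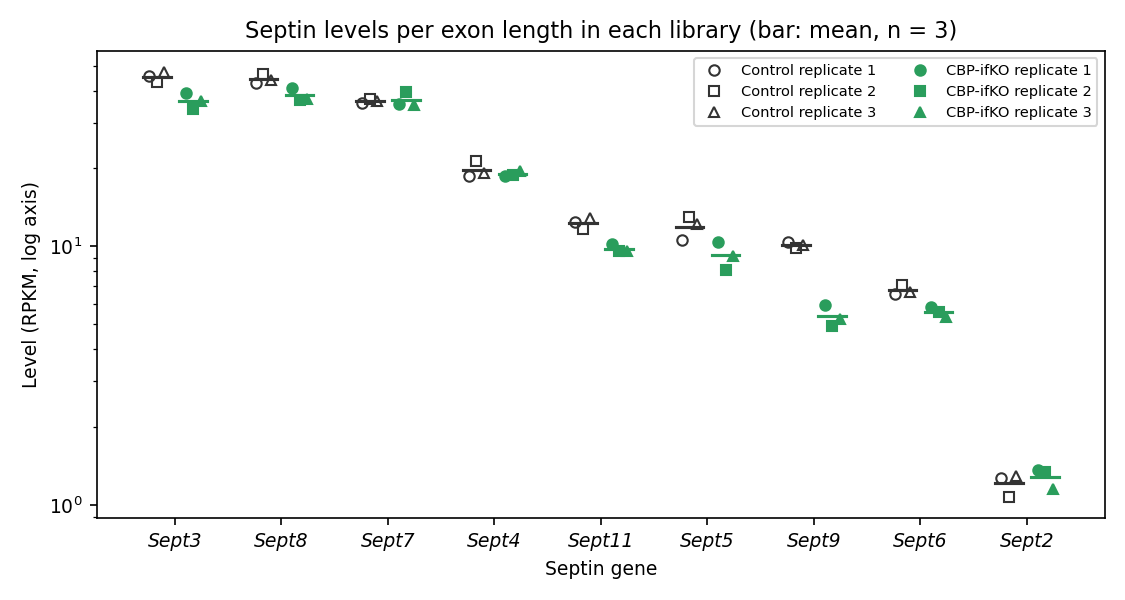
Level of each septin gene in each library, as CPM per kilobase of exon (RPKM, log axis), with genes ordered by their mean in Control. Open symbols are Control and filled symbols CBP-ifKO libraries, and bars are means (n = 3). Sept9 shows the widest gap between the groups, from 9.83 to 10.4 RPKM in Control to 4.93 to 5.93 RPKM in CBP-ifKO, while Sept7, Sept4 and Sept2 overlap.

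Annotated promoters are shown because CBP is a coactivator that DNA-binding factors such as CREB and AP-1 recruit, and their motifs were searched there. No promoter window was available for Sept3, Sept5 and Sept6, which were all called lower. RefSeq windows of 300 bases (GRCm38.p6, 250 before and 50 after a start) matched 6 of the 9 septins, with 15 windows in all. They are printed for Sept9, the member with the largest fold change, for Sept11, which like Sept9 was called in every fit, and for Sept7, whose groups overlapped. Capitals mark TGACG, the core of the cAMP response element to which CREB, the partner of CBP, binds, and TGANTCA, the AP-1 motif, each searched on both strands.
Sept9 most upstream start, chr11:117199411-117199710, plus strand: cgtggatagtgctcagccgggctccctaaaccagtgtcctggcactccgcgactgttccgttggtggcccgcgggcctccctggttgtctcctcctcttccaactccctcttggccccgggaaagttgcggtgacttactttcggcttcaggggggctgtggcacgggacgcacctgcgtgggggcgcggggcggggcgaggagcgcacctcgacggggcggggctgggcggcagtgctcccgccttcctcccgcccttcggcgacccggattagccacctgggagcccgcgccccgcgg
Sept9 internal start, chr11:117331465-117331764, plus strand: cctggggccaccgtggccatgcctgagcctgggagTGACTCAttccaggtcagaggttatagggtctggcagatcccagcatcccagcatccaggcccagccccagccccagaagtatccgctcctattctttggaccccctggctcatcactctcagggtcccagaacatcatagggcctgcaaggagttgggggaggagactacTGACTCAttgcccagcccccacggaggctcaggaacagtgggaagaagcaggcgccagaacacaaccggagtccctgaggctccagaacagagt
Sept11 start, chr5:93093166-93093465, plus strand: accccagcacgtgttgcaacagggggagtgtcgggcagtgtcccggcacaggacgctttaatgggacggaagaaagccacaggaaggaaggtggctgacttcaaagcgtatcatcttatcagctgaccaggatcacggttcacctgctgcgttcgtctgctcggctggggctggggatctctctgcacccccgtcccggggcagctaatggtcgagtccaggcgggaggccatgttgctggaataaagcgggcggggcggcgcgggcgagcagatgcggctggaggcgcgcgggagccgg
Sept7 upstream start, chr9:25251741-25252040, plus strand: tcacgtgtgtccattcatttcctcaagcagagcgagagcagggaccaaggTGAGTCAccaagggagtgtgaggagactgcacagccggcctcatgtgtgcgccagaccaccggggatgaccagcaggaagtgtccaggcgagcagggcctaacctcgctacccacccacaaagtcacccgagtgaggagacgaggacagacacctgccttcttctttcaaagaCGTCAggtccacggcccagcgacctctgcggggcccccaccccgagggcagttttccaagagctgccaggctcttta
TGACGTCA, the full cAMP response element, was in 0 of the 15 septin windows, against 1.79% of 32817 windows of the same length over all genes. The shorter TGACG, which is contained in the full element, was in 4 windows, belonging to Sept2 and Sept7, against 20.8% of all windows. The 2 windows of Sept2 overlap and share a match. TGANTCA was in 2 windows, both of which are printed, against 7.81% of all windows. They are the internal start of Sept9 shown here, with 2 matches, and the upstream start of Sept7, with 1. Not every window of these genes is printed. The remaining Sept9 windows, also at internal starts, hold neither motif, and the remaining Sept7 window holds TGACG only. The Sept7 window printed here holds both motifs, while the Sept11 window and the most upstream Sept9 window hold neither. These matches describe letters only. Sept9 has 4 such windows, and a count per gene cannot tell transcripts of these starts apart.

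Sept9 and Sept3 form the SEPT3 group among these genes. Sept9 (ENSMUSG00000059248, GRCm38 chromosome 11, 117199661 to 117362325, plus strand, protein coding) encodes a subunit that extends septin oligomers and binds microtubules. Its level was 78.5, 74.4 and 76.5 CPM in the Control pools, in replicate order, and 44.9, 37.3 and 39.5 CPM in the CBP-ifKO pools. The Control libraries lay within a coefficient of variation of 2.69%, and every CBP-ifKO library was far below them. The mean in CBP-ifKO was 53.0% of that in Control, with a log2 fold change of -0.92 (SE 0.076, 95% interval -1.08 to -0.76). Counted from the most negative fold change, Sept9 stood at position 141 of the 17981 genes tested. It was past the threshold in all 16 alternative fits, with log2 fold changes from -0.99 to -0.85, and none of its exon bases is shared with another gene on the same strand.

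Sept3 (chromosome 15, 82274893 to 82294574), a septin enriched in neurons and found at presynaptic terminals, moved less. It was at 377.8, 360.2 and 392.7 CPM in the Control pools, against 325.0, 281.3 and 303.8 in the CBP-ifKO pools. The lowest Control library stayed above the highest CBP-ifKO library, and the mean was lower by 19.5% (log2 fold change -0.31, SE 0.063). The call held in 15 of 16 alternative fits and was lost without Control replicate 3. The ratio of Sept9 to Sept3 per exon length was 0.223 ± 0.0079 in Control and 0.147 ± 0.0045 in CBP-ifKO (SD, n = 3). That ratio is taken within a library and does not depend on how libraries are scaled, though it does depend on the exon lengths used.

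Among the 9 members, the SEPT6 group was represented by Sept6, Sept8 and Sept11. All of them were lower without overlap, as were 13.9% of all genes tested. This holds for the listed members only: Sept10, a septin outside the 9, overlapped between groups (log2 fold change 0.016). Sept11 (chromosome 5, 93093437 to 93176447), known from dendritic spines and inhibitory synapses, was at 117.4, 110.5 and 121.5 CPM in the Control pools, against 96.3, 90.8 and 91.1 in the CBP-ifKO pools. Its log2 fold change was -0.33 (SE 0.063), and it was past the threshold in all 16 alternative fits, as was Sept9. Sept6 (chromosome X, 36911326 to 36991794), a common partner in septin oligomers, was at 64.8, 69.7 and 65.6 CPM in the Control pools, against 57.5, 55.3 and 52.7 in the CBP-ifKO pools. All CBP-ifKO pools lay below the Control pools, and the log2 fold change was -0.28 (SE 0.069). Sept8 (chromosome 11, 53519257 to 53549565), which binds the vesicle protein synaptobrevin and is also a septin of myelin, was at 260.2, 282.6 and 268.4 CPM in the Control pools, against 249.6, 224.5 and 225.5 in the CBP-ifKO pools. With a log2 fold change of -0.21 (SE 0.061) it was the smallest change called. It was past the threshold in 7 of 16 alternative fits, and was lost with RLE, upper-quartile or total-count scaling, with GC and length trends removed but no replicate block, and without any library other than CBP-ifKO replicate 1. Sept6 kept its call in 11 of 16, losing it with total-count scaling and whenever replicate 2 or 3 of either group was left out.

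In the SEPT2 group the picture was mixed, and the counting limits what can be read. Sept5 (chromosome 16, 18620502 to 18629954) binds syntaxin and restrains vesicle release. It was at 41.3, 50.9 and 47.8 CPM in the Control pools, against 40.7, 31.8 and 36.0 in the CBP-ifKO pools. The groups came close to each other, with Control replicate 1 just above CBP-ifKO replicate 1. The log2 fold change was -0.38 (SE 0.098). It was -0.15 and not past the threshold with GC and length trends removed, and the call was also lost whenever replicate 2 or 3 of either group was left out. Of the 3915 exon bases of Sept5, 83.7% are also exons of Gp1bb or Gm49601 on the same strand, which leaves 638. How reads over the shared bases were assigned was not stated, so its count is uncertain. Were such reads dropped, the level of Sept5 per exon length would be too low. Gp1bb held at most 5 counts in any library and Gm49601 between 47 and 80.

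Sept4 (chromosome 11, 87568903 to 87590539), a septin of glia and myelin, was at 101.4, 116.5 and 104.6 CPM in the Control pools, against 101.3, 102.4 and 106.5 in the CBP-ifKO pools. The groups overlapped, and the difference was within -0.20 to 0.084 on the log2 scale (95% interval). Sept2 (chromosome 1, 93478964 to 93510260), a core subunit that binds actin, was listed at 10.1, 8.59 and 10.3 CPM in the Control pools, against 10.9, 10.7 and 9.22 in the CBP-ifKO pools, which overlapped. A second identifier with the same symbol lies wholly within its exons, covers 41.8% of their bases and was at 0 counts in every library. How reads over the shared bases were assigned was not stated. Were such reads dropped, the level of Sept2 per exon length would be too low. The level of Sept2 is uncertain for that reason, and its log2 fold change of 0.09 (95% interval -0.20 to 0.37) rests on 100 to 163 counts a library.

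Sept7, the only member of its group, did not differ beyond its spread. It (chromosome 9, 25252439 to 25308571) was at 417.3, 433.0 and 424.0 CPM in the Control pools, against 414.2, 458.6 and 408.5 in the CBP-ifKO pools. The Control libraries lay inside the range of the CBP-ifKO libraries, and the log2 fold change was 0.0082 (95% interval -0.12 to 0.13). Set against Sept7, the ratio of Sept9 to Sept7 per exon length was 0.277 ± 0.013 in Control and 0.147 ± 0.021 in CBP-ifKO (SD, n = 3). The ratio of Sept3 to Sept7 was 1.24 ± 0.069 and 0.998 ± 0.13.

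**Figure D2:**
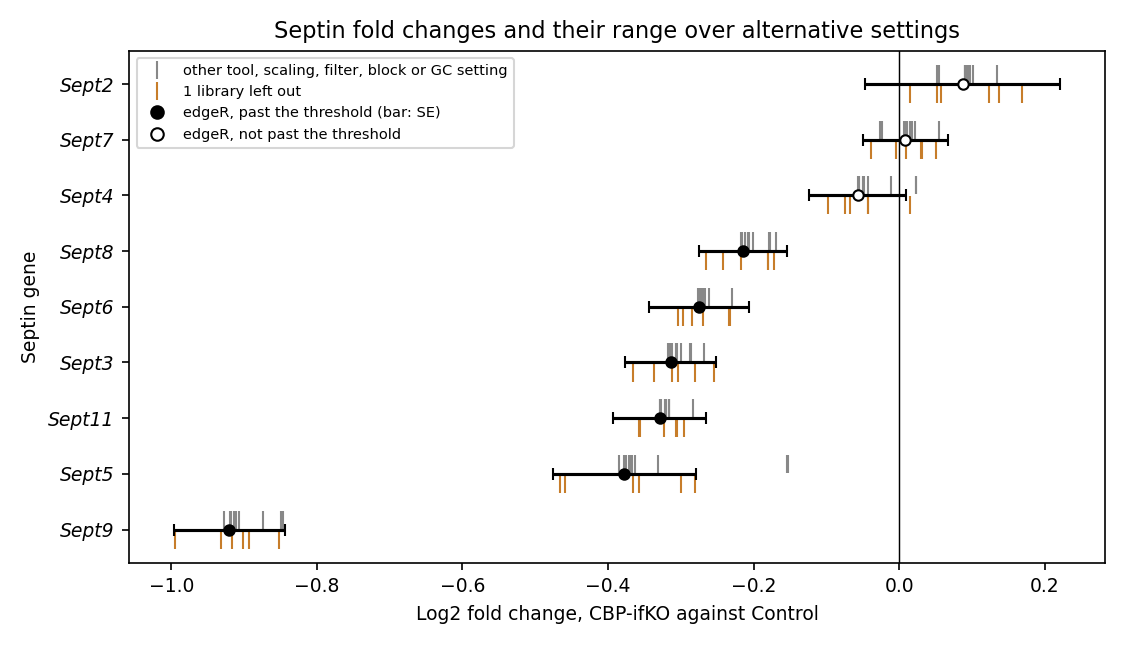
Log2 fold change of each septin gene, CBP-ifKO against Control. Circles are the edgeR values with SE bars, filled where past the threshold over all genes, grey ticks are the 10 fits with all libraries and another setting, and orange ticks are the 6 fits with 1 library left out. Sept9 stays between -0.99 and -0.85, Sept5 reaches -0.15 with GC and length trends removed, and Sept7 and Sept4 fall on either side of 0.

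Per exon length, which allows levels of different genes to be compared, Sept3 (45.3 ± 1.96 RPKM), Sept8 (44.4 ± 1.86) and Sept7 (36.5 ± 0.68) led in Control (SD, n = 3). Sept4 followed at 19.8 ± 1.46, Sept11 at 12.3 ± 0.58, Sept5 at 11.9 ± 1.25, Sept9 at 10.1 ± 0.27, Sept6 at 6.75 ± 0.27 and Sept2 at 1.21 ± 0.12 RPKM. Of the neighbours in this order, Sept3 and Sept8 overlapped between libraries, as did Sept11 and Sept5. In CBP-ifKO the order began with Sept8 (38.3 ± 2.34 RPKM), Sept7 (36.7 ± 2.36) and Sept3 (36.5 ± 2.63), which overlapped with each other, and Sept11 (9.79 ± 0.33) and Sept5 (9.24 ± 1.14) overlapped again. Sept9 dropped to 5.36 ± 0.52 RPKM, where it overlapped with Sept6 at 5.58 ± 0.24 RPKM, although in Control every library held more Sept9 than Sept6. The levels of Sept2 and Sept5 are uncertain for the reason given above, and so are their places in this order. The deposited exon lengths of Sept4 (5432 bases) and Sept3 (8319 bases) exceed those of the annotation used for symbols (3563 and 6620 bases), with which Sept4 would stand at 30.2 RPKM and Sept3 at 56.9 RPKM in Control. In CBP-ifKO they would stand at 29.0 and 45.8 RPKM, so that Sept3 would lead in both groups. The order Sept3, Sept8, Sept7 would then be the same in Control and CBP-ifKO. With the deposited lengths, Sept3 instead had the lowest mean of these genes in CBP-ifKO, so that change of order depends on the length used. Folds and tests do not depend on that length, apart from the fits with GC and length trends removed, which used the deposited one. The shares and the ratios to Sept3 given here also rest on the deposited length.

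The summed level of the 9 septins was 183.9, 191.0 and 190.1 RPKM in Control and 168.0, 158.6 and 158.8 RPKM in CBP-ifKO. All CBP-ifKO libraries were below all Control libraries in this sum. The SEPT3 group gave 27.8% to 30.3% of it in Control and 24.4% to 26.8% in CBP-ifKO, and Sept9 alone 5.37% ± 0.25 and 3.31% ± 0.21 (SD, n = 3). Sept7 gave 19.2% to 19.5% in Control and 21.2% to 24.9% in CBP-ifKO, again without overlap. The shares of the SEPT2 group (16.6% to 18.6% and 17.9% to 18.9%) and of the SEPT6 group (33.4% to 34.1% and 32.7% to 33.9%) overlapped. The sum includes Sept2 and Sept5, whose levels are uncertain because of shared exon bases. Every share of it carries that uncertainty, and that of the SEPT2 group most directly.

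**Figure D3:**
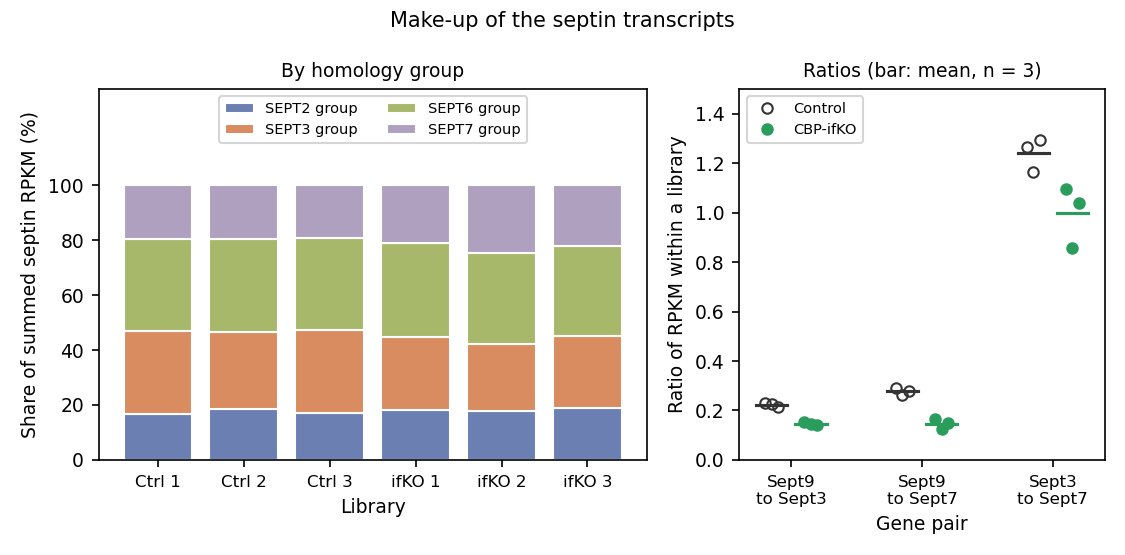
Left, share of the summed septin RPKM in each library that came from each homology group (stacked bars, %). Right, ratios of RPKM between pairs of septins within each library, with bars for means (n = 3). The SEPT3 group is smaller in each CBP-ifKO library than in each Control library, and the ratio of Sept9 to Sept3 does not overlap between groups (0.214 to 0.228 in Control and 0.143 to 0.152 in CBP-ifKO). The summed RPKM includes Sept2 and Sept5, whose levels are uncertain because of shared exon bases.

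The other septin genes of the mouse were not among the 9 and do not enter the summed level or the shares. Per exon length Sept10 stood at 2.64 RPKM in Control, above Sept2 at 1.21 RPKM, whose level is uncertain. Sept10 ranged from 7.79 to 8.50 CPM over the Control pools and from 7.27 to 9.66 over the CBP-ifKO pools, and was not called (edgeR adjusted p 0.970). Sept1 ranged from 0.859 to 1.41 CPM and from 1.51 to 1.94 CPM, on 10 to 23 counts a library. These ranges did not overlap, and the log2 fold change of 0.59 (SE 0.30) was not called (edgeR adjusted p 0.278). Sept12, known from sperm, was at 0 counts in every library, and Sept14 had 1 count in all.

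Genes of proteins that bind septins were read from a list of 13, of which 12 passed the filter on low counts and 2 were past the threshold, both lower (median log2 fold change 0.0090), where 6.39% of all genes tested were past it and 4.99% as lower. Map4, a microtubule-associated protein whose binding to microtubules SEPT2 limits, fell from 577.5, 548.7 and 570.2 CPM to 475.2, 429.5 and 445.0 CPM, a log2 fold change of -0.33 (edgeR adjusted p 0.00211, SE 0.057). Stx1a, the syntaxin that Sept5 binds, fell from 47.7, 54.4 and 52.8 CPM to 42.4, 39.7 and 43.4 CPM, a log2 fold change of -0.30 (edgeR adjusted p 0.0250, SE 0.077). Neither gene overlapped between groups, which was so for 25.6% of all genes tested, 13.9% as lower. Map4 was past the threshold in all 16 alternative fits and Stx1a in 8, of which 1 left out a library, the fit without Control replicate 1. With GC and length trends removed, Stx1a was at -0.17 (edgeR adjusted p 0.147). Without any other single library the count of 2 became 1. The Borg genes, whose products link septins to the GTPase CDC42, were not past the threshold: Cdc42ep2 had the highest value (log2 fold change 0.41, SE 0.17, edgeR adjusted p 0.175), Cdc42ep1, Cdc42ep3 and Cdc42ep4 lay between -0.16 and 0.016, and Cdc42ep5 was too low to be tested. Hdac6, a deacetylase of tubulin, did not overlap between the groups but was not called (log2 fold change 0.19, edgeR adjusted p 0.172). Anln, the gene of anillin, a scaffold of septin filaments in myelin, stood at 43.3 ± 1.69 CPM and 45.5 ± 1.55 CPM (SD, n = 3), and Vamp2, the partner of Sept8, at 189.6 ± 39.8 and 180.6 ± 14.6 CPM.

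**Figure D4:**
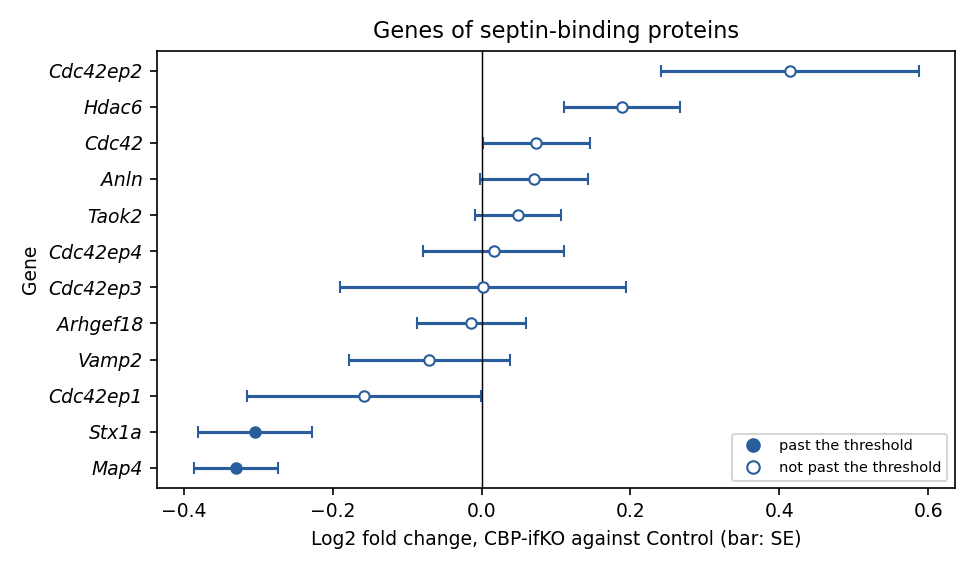
Log2 fold change (with SE bars) of 12 genes whose products bind septins, CBP-ifKO against Control. Map4 (-0.33) and Stx1a (-0.30) are past the threshold over all genes (filled), and the other 10 are not (open), with Cdc42ep2 highest at 0.41.

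Near Sept9 on chromosome 11, 3 of the 17 genes annotated within 200 kb of its ends were expressed enough to be tested. Sec14l1, a lipid-transfer family gene that ends 40.4 kb upstream of Sept9, was at 189.5, 196.6 and 194.8 CPM in the Control pools, against 158.5, 147.0 and 155.9 in the CBP-ifKO pools. It was lower without overlap, by a log2 fold change of -0.33 (edgeR adjusted p 0.00218), and was past the threshold in all 16 alternative fits. Among all genes tested, 13.9% were lower without overlap and 4.99% were past the threshold as lower. Snhg20 and Gm11728, both noncoding and farther upstream, were not past the threshold (edgeR adjusted p 0.793 and 0.121). Snhg20 overlapped between groups (log2 fold change 0.088). Gm11728 was higher without overlap, at 0.17 to 0.94 CPM in Control and 1.07 to 1.56 CPM in CBP-ifKO. Its log2 fold change of 1.23 rests on 2 to 19 counts a library, and 11.8% of all genes tested were higher without overlap.

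The 5 genes whose profile over the 6 libraries was most like that of Sept9 were Rara, the gene of retinoic acid receptor alpha, A530013C23Rik, A830036E02Rik, Zfpm1, the gene of a cofactor of GATA factors, and Bahcc1. Likeness was the root mean square difference between log2 CPM values centred on each gene's mean, which was 0.017 for Rara and 0.094 for Bahcc1. Rara was at 8.83, 8.25 and 8.53 CPM in Control and at 4.75, 4.01 and 4.28 CPM in CBP-ifKO, with a log2 fold change of -0.98. All 6 libraries enter this measure, so the difference between genotypes weighs heavily in it. The other septins were farther from Sept9 by this measure, from 0.30 (Sept5) to 0.51 (Sept2).

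Markers of the cell types of the hippocampus were compared beside these results, since several septins are made in glia as well as in neurons. Among all genes tested, 4.99% were called lower and 1.4% higher. Taken as single genes, 13.9% were lower without overlap, and 25.6% did not overlap in either direction. Summed markers of oligodendrocytes (2487 to 2956 CPM in Control and 2563 to 2785 CPM in CBP-ifKO), where Sept4 and Sept8 are also found, overlapped, and 0 of 9 were past the threshold. Markers of oligodendrocyte precursors did not overlap (146.6 to 156.0 and 111.2 to 114.5 CPM), and all 4 were below Control, 3 of them called, among them Pdgfra (log2 fold change -0.38, edgeR adjusted p 0.00263) and Cspg4 (-0.57, edgeR adjusted p 0.00251). Markers of CA1 pyramidal neurons did not overlap either (466.1 to 471.0 and 308.7 to 330.1 CPM), and all 5 were called lower, with Wfs1 at a log2 fold change of -1.19 (edgeR adjusted p 8.34e-07). The sums of CA3 (111.8 to 119.3 and 92.2 to 107.7 CPM, 0 of 5 called), interneuron (529.3 to 552.5 and 473.2 to 503.2 CPM, 2 of 6 called lower) and astrocyte markers (1809 to 1862 and 1681 to 1754 CPM, 0 of 7 called) were lower without overlap. The sums for excitatory neurons (1 of 5 called lower), dentate granule cells (1 of 5 called higher), microglia (0 of 6 called), endothelial cells (0 of 6 called), mural cells (1 of 5 called lower) and choroid plexus (0 of 2 tested called) overlapped, and no marker in any list was at 0 in all libraries. Camk2a alone gave 1693 to 2205 CPM of the excitatory sums, which were 2739 to 3168 CPM. In that list Nrgn was the marker called lower (log2 fold change -0.73), 3 of 5 were below Control and 2 above. The part of these shifts in the septin values was not tested.

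GC content, taken over the longest annotated transcript of each gene and not over all its exons, also differed among the septins. It was 35.7% in Sept7 and 40.6% in Sept2, neither of which was called, 54.1% in Sept4, which was not called either, and between 46.6% and 61.2% in the 6 septins called. With the dependence on GC and length taken out of each library, Sept9 (-0.85), Sept11 (-0.32), Sept3 (-0.29) and Sept6 (-0.27) stayed past the threshold and Sept8 (-0.18) and Sept5 (-0.15) did not. With the replicate block added to that correction, Sept8 (-0.18) was past the threshold and Sept5 (-0.15) was not.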

How the data were processed

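RNA-seq of hippocampus was available for 3 Control and 3 CBP-ifKO samples, grouped and numbered by sample title. Per the labels and the study's methods, libraries were single-end (50 bp), adapters were trimmed with Trim Galore (version 0.6.4), reads were aligned with STAR (version 2.6.1) to GRCm38, and reads of low mapping quality were dropped. The values the authors deposited are raw counts over exons of Ensembl genes made with Rsubread, without normalization, beside 1 column of gene length. Neither the use of strand nor the handling of reads over overlapping genes was stated.

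GENCODE M21 of the same build gave symbols for 99.41% of identifiers. The main test was the quasi-likelihood F-test of edgeR (version 4.0.16, in R 4.3.3) with TMM factors, on genes kept by filterByExpr (min.count 10, min.total.count 15). P-values were adjusted by Benjamini-Hochberg over every gene tested, and 0.05 was the threshold. The SE is the log2 fold change divided by the square root of F. RPKM are TMM-scaled CPM per kilobase of the deposited length. The common coefficient of variation between replicates was 6.81%. The p-values measure the spread between these pools. The alternatives were DESeq2 (version 1.42.0, the tool of the study), limma-voom (limma version 3.58.1), scaling by RLE, by upper quartiles or by totals, dropping the filter, a stricter one of 10 counts in each library, leaving out each library, a replicate block, and GC and length trends removed (splines with 5 degrees of freedom), also together with the block.

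The members and gene lists were chosen with earlier results of these data known. Genes named were Crebbp, all septins, 13 genes of septin-binding proteins, genes within 200 kb of Sept9, the 5 genes of at least 1 CPM most like Sept9 (pseudocount 0.5 CPM) and marker genes where a list is described. Esr1, Gp1bb and Gm49601 were added after their values were seen. RefSeq promoter windows (GRCm38.p6) were searched as text.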

Additional observations from a re-analysis of the deposited data

How the results depend on the processing

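Sept9 and Crebbp kept their direction and their call in all 16 alternative fits. The number of septins called was 4 to 6 in the 10 fits with all libraries (4 with total-count scaling and with GC and length trends removed) and 2 to 6 in the 6 fits that each left out a library. The 6 septins called kept their direction in every fit. Sept4 turned to higher with GC and length trends removed (0.023), with the replicate block as well (0.023) and without Control replicate 2 (range over libraries left out -0.098 to 0.015). Sept7 turned to lower with GC and length trends removed (-0.027), with the block as well (-0.023) and without Control replicate 1 or CBP-ifKO replicate 2 (-0.039 to 0.051). None of these was past the threshold. Septin-binding genes called fell to 1 with total-count scaling and with GC and length trends removed, rose to 3 with the replicate block added to the latter, and numbered 1 to 2 with a library left out. Over all genes, 1149 were called, 1839 with GC and length trends removed in addition to the replicate block, and 498 to 1326 with a library left out. The cause of these shifts was not tested.

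Deviations of samples that share a number correlated at 0.079, 0.038 and 0.00082, so the replicate numbers were not taken as pairs. With the replicate block, 1210 genes and the same number of septins, 6, were called, and Sept9 was at -0.92. Scaling by totals moved the median of all genes from -0.0033 to 0.043. Sept2 and Sept5 are limited by shared exon bases and Sept1 by low counts.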
